A study of Mus musculus with 18 samples.

Results

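The response of cultured mouse macrophages to 4 h of the synthetic glucocorticoid dexamethasone was described from 6 of the 18 arrays of a time series. The 3 arrays titled for 4 h at 100 nM were set against the 3 titled baseline. The cells were bone marrow derived macrophages, grown over 1 week from the marrow of 3 male C57BL/6 mice aged 10 weeks. Their medium held 10% serum and 10000 U/ml of recombinant human CSF1, also after replating. CSF1, the growth factor that keeps macrophages alive, was thus shared by both groups, and the baseline cells received no dexamethasone. The labels do not say whether a replicate number stands for 1 mouse. No untreated cells kept for 4 h were analysed here, so dexamethasone and elapsed time in culture cannot be told apart.

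Glucocorticoids cross the cell membrane and bind the glucocorticoid receptor, a transcription factor that is held in the cytoplasm by chaperones until hormone arrives. In the nucleus the receptor binds DNA as a dimer at glucocorticoid response elements, where it switches genes on, and it also lowers the transcription of many inflammatory genes that depend on NF-kappaB and AP-1. In macrophages these hormones are known for damping cytokine output and for raising genes of apoptotic cell uptake and haemoglobin clearance.

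After 4 h, 992 of 13193 tested genes (7.52%) differed from baseline in limma's moderated test at an adjusted p under 0.05. Of these 593 were higher (4.49%) and 399 lower (3.02%). Counts of called members in the gene lists below are to be read beside these shares. Among called genes the median change was 0.47 log2 for the higher and -0.35 log2 for the lower. A change of at least 1 log2 unit was reached by 86 higher and 12 lower genes, and a change of at least 2 by 18 and 1. For 585 of the higher and 395 of the lower genes all 3 arrays at 4 h lay on one side of all 3 baseline arrays, a separation met upward by 12.2% and downward by 10.1% of all tested genes. The split between higher and lower depended on scaling. When every array was centred on its own median, 363 genes were higher and 879 lower. Arrays with the same replicate number deviated together, so the fit was repeated with the number as a block, which compares arrays within a number. It called 10.6% of all tested genes, 5.76% higher and 4.83% lower.

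**Figure D1:**
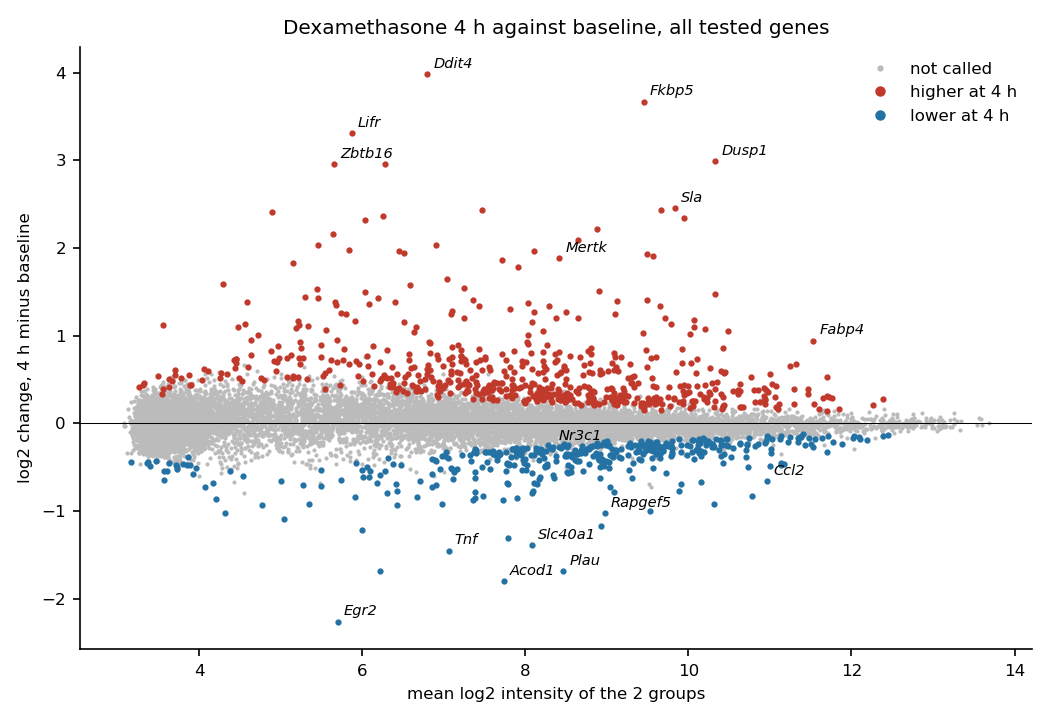
Change at 4 h against baseline for every tested gene. The vertical axis gives the log2 change (4 h minus baseline), the horizontal axis the mean log2 intensity of both groups, and each point is 1 gene, red if called higher, blue if called lower and grey if not called. The 593 higher genes reached 3.98 log2 units (Ddit4) and the 399 lower genes reached -2.26 (Egr2).

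Signs of RNA quality and of background moved with the groups. For the Gapdh control probe sets the signal at the 3' end exceeded that at the 5' end by 0.19 ± 0.021 log2 at 4 h and 0.0563 ± 0.03 log2 at baseline, and for those of Actb by 0.424 ± 0.03 at 4 h and 0.376 ± 0.019 at baseline (SD, n = 3 each). The exact two-sided permutation p was 0.1 for each control, also when adjusted over both, and 3 against 3 arrays cannot give a smaller one. The share of tested genes above background was 68.7% to 73.1% at 4 h, against 73.0% to 81.0% at baseline. The part of either difference in the gene calls was not tested. Of 13 tested macrophage markers 0 were called by limma, 2 had an unadjusted p under 0.05, and Fcgr1 and Laptm5 were called higher with the replicate number as a block. Their summed log2 level was 15.47 to 15.51 at 4 h and 15.45 to 15.50 at baseline. In bulk samples fewer cells of a type and less RNA per cell cannot be told apart.

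The receptor gene itself moved little. Nr3c1, which encodes the glucocorticoid receptor, measured 8.17, 8.27 and 8.17 log2 intensity at 4 h, against 8.49, 8.54 and 8.37 at baseline. All 3 arrays at 4 h were below all 3 at baseline, and the gene fell by 0.27 ± 0.08 on the log2 scale (SE) with an adjusted p of 0.0492. That call was lost with every array of both groups left out in turn except baseline replicate 3, with an adjusted p of up to 0.189, and when the evenly stepped values described with the processing were kept. Among all alternatives run but the size rule it was lost in 14, with changes of -0.36 to -0.10 and an adjusted p of up to 0.883. The fit with the replicate number as a block kept it (adjusted p 0.0254). The 5 probe sets of Nr3c1 ran from -0.27 to -0.10. Of 12 tested genes of the receptor and its chaperones, Fkbp5 rose and Nr3c1 fell. Among 10 tested cofactors Ncoa2, a coactivator of nuclear receptors, rose by 0.58 ± 0.07 (adjusted p 3.32e-06) with its brightest probe set, although another of its 4 was at 0.00, and the related coactivator Ncoa3 fell by 0.26 ± 0.07 on the log2 scale, with an adjusted p of 0.018. The Ncoa3 call was lost without 4 h replicate 2 (adjusted p 0.122) and without baseline replicate 3 (0.165).

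Genes widely used as markers of the active receptor were among the largest rises. Ddit4, an inhibitor of the growth kinase mTOR, measured 8.88, 8.54 and 8.93 log2 intensity at 4 h, against 5.32, 4.28 and 4.81 at baseline. The groups lay far apart, although the baseline arrays scattered over more than 1 log2 unit. The change was 3.98 ± 0.19, a 15.8-fold higher intensity, with an adjusted p of 6.99e-14. Fkbp5, a co-chaperone that lowers the receptor's affinity for hormone, measured 11.23, 11.33 and 11.29 at 4 h, against 7.61, 7.70 and 7.54 at baseline. Its arrays were tight within each group, and the gene rose by 3.67 ± 0.07 (adjusted p 8.33e-22). The 3 probe sets of Fkbp5 disagreed, from -0.02 to 3.88.

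Dusp1, whose phosphatase inactivates MAP kinases, stood at 11.68, 12.03 and 11.77 log2 intensity at 4 h and at 8.73, 8.74 and 9.03 at baseline. It rose by 2.99 ± 0.09, and the groups were far apart. Zbtb16, a zinc finger repressor, stood at 6.62, 7.44 and 7.33 at 4 h and at 4.11, 4.12 and 4.31 at baseline. The 3 arrays at 4 h spread more than those at baseline and lay above all of them, and the change was 2.95 ± 0.26. Per1, a clock repressor, rose by 2.43 ± 0.10, Klf9 by 2.43 ± 0.07 and Tsc22d3, the gene of the anti-inflammatory protein GILZ, by 2.34 ± 0.06. One of the 5 probe sets of Klf9 was at -0.05. Of 26 tested textbook receptor targets 12 rose and 1 fell (14 and 2 with the replicate number as a block, which compares arrays within a number), with a median change of 0.36 log2, beside a median of 0.01 over all tested genes. Targets in textbooks were collected in part from experiments like these, so the list is not independent evidence of its direction. The member that fell was Rgs2, which limits signals of G protein coupled receptors. It measured 10.38, 10.42 and 10.30 at 4 h, against 11.26, 11.02 and 11.29 at baseline, and fell by 0.83 ± 0.08 on the log2 scale. Its 3 probe sets all lay below 0, from -0.84 to -0.09.

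**Figure D2:**
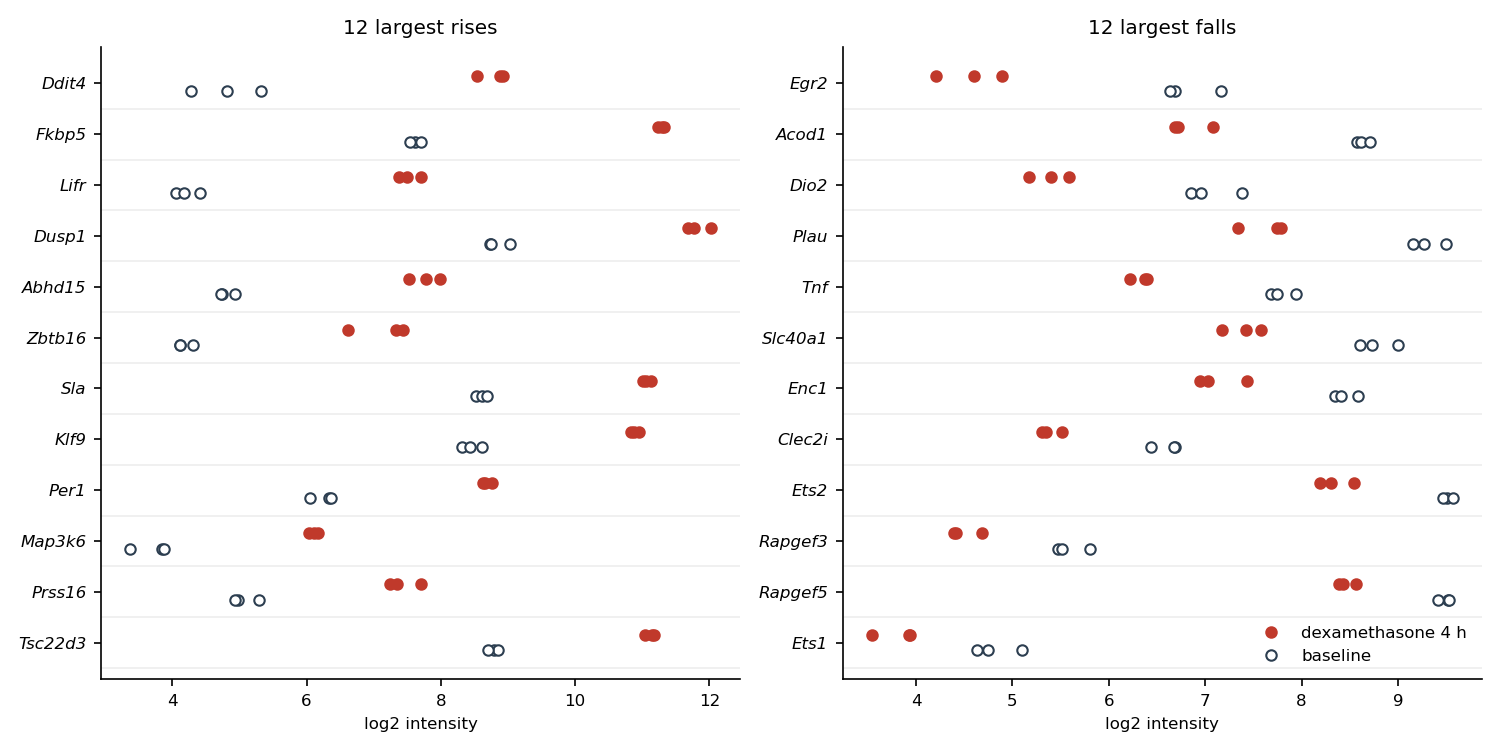
Log2 intensity on each array for the 12 largest rises (left) and the 12 largest falls (right) among called genes whose groups did not overlap. Filled red points are the 3 arrays at 4 h, and open points, set just below them, the 3 baseline arrays. Every gene shown has a gap between its groups, with a change of 3.98 log2 units for Ddit4 and -2.26 for Egr2. Map3k6 at baseline and Ets1 at 4 h averaged below background, so their gaps give only a bound on the fold.

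Other large rises were not on that list. Lifr, the receptor chain for leukemia inhibitory factor, measured 7.37, 7.50 and 7.70 log2 intensity at 4 h, against 4.05, 4.41 and 4.18 at baseline, and rose by 3.31 ± 0.17. It was just above the background level of 3.86 at baseline and well above it on all 3 arrays at 4 h. Sla, an adaptor that damps antigen receptor signals in lymphocytes, rose by 2.46 ± 0.06, with its other probe set at 2.80. Prss16, a serine protease known from the thymus, rose by 2.37 ± 0.16. Abhd15 rose by 2.96 ± 0.15 with its brightest probe set, while its other one was at -0.08. Map3k6, a kinase upstream of stress MAP kinases, was not above background at baseline by its group mean (3.84, 3.87 and 3.37) and reached 6.11, 6.17 and 6.03 at 4 h. Its intensity was at least 5-fold higher at 4 h, taken over each baseline array's own background (adjusted p 1.71e-11).

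Promoters of the called genes were searched because the receptor binds DNA. The 250 bases before each annotated start were taken from RefSeq (GRCm38.p6), where 484 genes that rose and 317 that fell had an entry. The half-site AGAACA, the letters that 1 partner of the receptor dimer is known to bind, was searched on both strands, where it reads TGTTCT on the opposite one. It stood in 16.1% of all 32851 windows and in at least 1 window of 13.7% of tested genes. Among genes that rose 64 of 484 held it (13.2%) and among those that fell 45 of 317 (14.2%), so both shares lay near that of all tested genes. Of 27 listed textbook receptor targets with an entry, 5 held a half-site (18.5%), beside 18.2% of all genes with an entry. Of the 12 called ones 4 held a half-site, among them Sgk1 with 6 windows and Tsc22d3 with 3 to match in. In 2 of the 12 a window held at least 2. Both of these windows are shown with the half-sites in capitals. The Sgk1 window is chr10:21993640-21993889 on the plus strand, 1 of 6 annotated for that gene and the one with most half-sites, which number 3. The Sult1a1 window is chr7:126676419-126676668 on the minus strand, printed along the gene, with 2 half-sites that begin 212 and 34 bases before the start.
Sgk1: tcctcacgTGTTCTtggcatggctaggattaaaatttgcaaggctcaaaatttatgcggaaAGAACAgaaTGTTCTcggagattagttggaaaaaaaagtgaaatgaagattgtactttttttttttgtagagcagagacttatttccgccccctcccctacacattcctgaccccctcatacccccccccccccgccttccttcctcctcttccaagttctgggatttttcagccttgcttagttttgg
Sult1a1: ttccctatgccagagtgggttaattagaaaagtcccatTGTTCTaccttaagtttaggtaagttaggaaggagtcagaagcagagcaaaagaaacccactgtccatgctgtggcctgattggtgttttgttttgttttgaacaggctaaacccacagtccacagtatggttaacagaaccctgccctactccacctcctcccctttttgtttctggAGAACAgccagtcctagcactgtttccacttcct

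Sgk1 encodes a kinase of the insulin and salt response. It measured 10.58, 10.60 and 10.67 log2 intensity at 4 h, against 9.46, 9.62 and 9.47 at baseline, and rose by 1.10 ± 0.05 (adjusted p 1.26e-13). The spread within each group was well short of the gap between groups. A match in a window is a description of its letters, and the search covered no distal sequence.

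Genes that restrain or wire the mTOR and insulin pathway moved one way where they were called. Of 22 tested members 7 rose and 0 fell by limma, and 8 had an unadjusted p under 0.05. The 7 were 31.8% of the list, beside 4.49% of all tested genes called higher. Besides Ddit4 and Sgk1, the gene Insr, the insulin receptor, rose by 0.76 ± 0.11, with 1 of its 3 probe sets at -0.04, and Pik3r1, the regulatory subunit of PI 3-kinase, by 0.69 ± 0.05. Pik3r1 measured 10.39, 10.37 and 10.38 at 4 h, against 9.61, 9.71 and 9.76 at baseline. All 4 of its probe sets were higher, from 0.69 to 0.81. Deptor, which binds and inhibits mTOR, rose by 0.58 ± 0.11, Rptor, the scaffold of mTOR complex 1, by 0.45 ± 0.09 and Eif4ebp1, the translation repressor that the complex inactivates, by 0.23 ± 0.07. The median over all 22 members was 0.04 log2, and 15 of them were not called.

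MAP kinase phosphatases and feedback genes split. Of 16 tested members 3 rose and 3 fell. Dusp6, a phosphatase specific for ERK kinases, measured 10.44, 10.72 and 10.57 at 4 h, against 9.85, 9.96 and 10.03 at baseline, and rose by 0.63 ± 0.06 beside Dusp1 and Spry2 (0.44 ± 0.09). Dusp4, a nuclear phosphatase of the same family, measured 7.60, 7.87 and 7.65 at 4 h, against 8.56, 8.39 and 8.47 at baseline, and fell by 0.77 ± 0.10 on the log2 scale. Members of 1 family were thus fully separated in opposite directions. Dusp16 fell by 0.64 ± 0.12 on the log2 scale with its brightest probe set, while its other one was at 0.21, and Spred1, an inhibitor of Ras signalling, fell by 0.27 ± 0.06.

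Transcription factors moved both ways. Of 20 tested KLF, C/EBP and zinc finger regulators 9 rose and 2 fell, with a median of 0.29 log2. Klf4, a factor of macrophage differentiation, measured 10.53, 10.42 and 10.62 at 4 h, against 8.38, 8.69 and 8.77 at baseline. The groups were far apart, and the gene rose by 1.91 ± 0.09. Klf13 rose by 0.80 ± 0.07, Cebpa, which drives myeloid differentiation, by 0.74 ± 0.12, and Klf6, Klf3 and Cebpb by 0.39, 0.37 and 0.26. Egr2, an immediate-early zinc finger factor, had the largest fall of all tested genes. It measured 4.60, 4.89 and 4.21 at 4 h, against 7.16, 6.69 and 6.64 at baseline, and fell by 2.26 ± 0.19 on the log2 scale (SE), with an adjusted p of 4.23e-09. Its levels at 4 h were close to background, and its other probe set was at -1.98. Zeb2, a repressor that macrophages need to keep their identity, fell by 0.45 ± 0.05 on the log2 scale.

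The AP-1 and immediate-early list held 2 genes that rose and 3 that fell of 21 tested. Fos, a subunit of AP-1, measured 9.62, 9.99 and 9.87 at 4 h, against 8.35, 8.41 and 8.55 at baseline, and rose by 1.39 ± 0.10, while Maf rose by 0.84 ± 0.07. Ier3 fell by 0.79 ± 0.10 and Atf3, a repressor induced by stress, fell by 0.67 ± 0.11 on the log2 scale, next to Egr2. The ETS factors Ets2 and Ets1 fell as well. Ets2 measured 8.19, 8.54 and 8.31 at 4 h, against 9.51, 9.47 and 9.57 at baseline, and fell by 1.17 ± 0.08 on the log2 scale. Ets1 was not well above background at 4 h, and its intensity was at least 1.74-fold lower there (adjusted p 0.000146).

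Macrophage lineage factors moved both ways, 3 of 16 rising and 4 falling. Besides Maf and Cebpa, Irf5 rose by 0.37 ± 0.08. Runx1 fell by 0.50 ± 0.08 with all 6 of its probe sets below 0, and Pparg, a lipid-sensing nuclear receptor, fell by 0.49 ± 0.09 on the log2 scale. Pparg measured 8.06, 8.06 and 7.88 at 4 h, against 8.57, 8.44 and 8.46 at baseline. Spi1, the master factor of the lineage also called PU.1, fell by 0.27 ± 0.07, a small change with no overlap between the groups (8.24, 8.34 and 8.26 at 4 h, against 8.58, 8.57 and 8.49 at baseline).

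Clock genes had 4 rises and 1 fall among 19 tested, or 4 and 2 with the block. Nfil3, a repressor of the clock's output genes, measured 7.38, 7.50 and 7.26 at 4 h, against 5.61, 5.91 and 5.88 at baseline, and rose by 1.58 ± 0.15. Arntl, the clock activator also called Bmal1, rose by 0.63 ± 0.11, with its other probe set at 0.26. Per2 was not above background at baseline, so its intensity was at least 1.17-fold higher at 4 h (adjusted p 0.0248), and its call was lost without replicate 2 or 3 of either group (adjusted p up to 0.179). Bhlhe40, a clock repressor, fell by 0.42 ± 0.10 on the log2 scale.

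**Figure D3:**
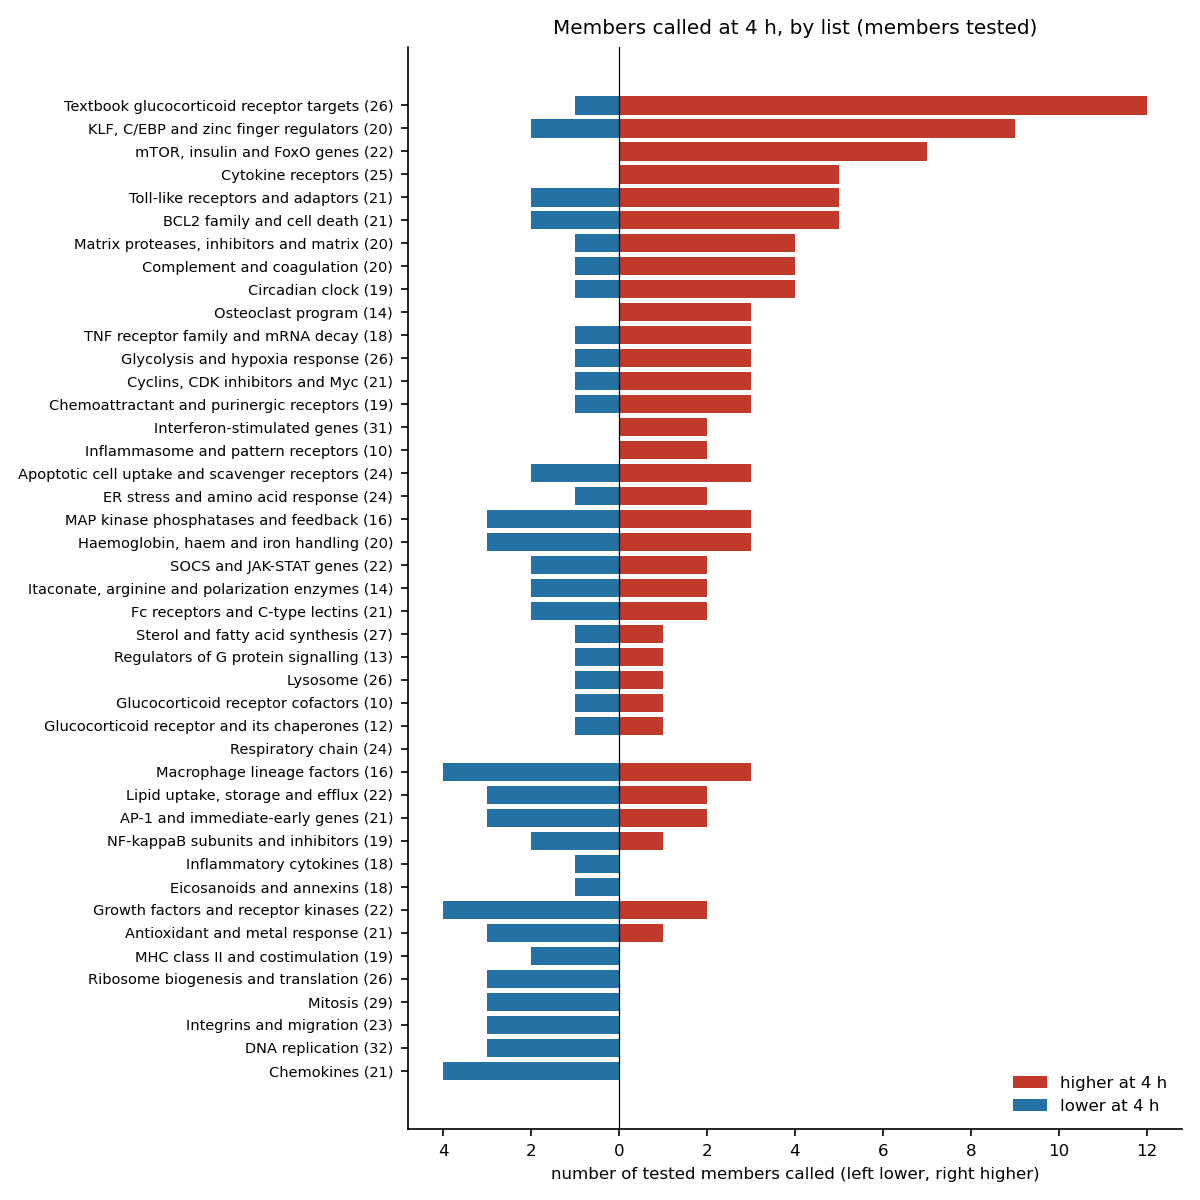
Number of tested members called at 4 h in each of 43 gene lists. Bars to the right count members that were higher and bars to the left members that were lower (limma, adjusted p under 0.05), with the number tested in brackets. Textbook receptor targets have the longest bar upward with 12 of 26, chemokines have 4 of 21 downward and 0 upward, and the respiratory chain list has no bar. Over all tested genes 4.49% were called higher and 3.02% lower.

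Inflammatory lists differed in their calls. Of the cytokines 5.56% and of the chemokines 19.0% were called, all lower, beside 3.02% of all tested genes called lower. Tnf, the cytokine tumour necrosis factor, measured 6.22, 6.38 and 6.40 log2 intensity at 4 h, against 7.68, 7.74 and 7.94 at baseline. Every array at 4 h was more than 1 log2 unit below every baseline array, and the gene fell by 1.45 ± 0.10 on the log2 scale (SE), with an adjusted p of 1.21e-10. It was the 1 called member of 18 tested inflammatory cytokines. With the replicate number as a block Tgfb1 was called lower too, 2 in all. Of the 18 cytokines, 5 averaged below background at 4 h and 6 at baseline. Il1a, Il6, Il12a, Il12b, Il27, Csf3 and Osm were on the list but were not tested. Of 21 tested chemokines 4 fell and 0 rose by limma, 7 had an unadjusted p under 0.05, and the median was -0.04 log2. In each group 6 of the 21 averaged below background. With the block 6 chemokines fell, beside 4.83% of all tested genes called lower that way. Ccl7 measured 9.65, 10.40 and 9.50 at 4 h, against 10.69, 11.06 and 10.58 at baseline, and fell by 0.92 ± 0.19 on the log2 scale, while Ccl2 fell by 0.66 ± 0.10. Both attract monocytes, and their groups did not overlap. The calls of Ccl12 (-0.63 ± 0.18) and Ccl4 (-0.41 ± 0.12) depended on single arrays in the fit without the block. With the block on all arrays their adjusted p was 0.000449 and 0.0151. Without the block Ccl12 was lost without 4 h replicate 1 or 3 or baseline replicate 2 (adjusted p up to 0.235), and Ccl4 without replicate 1 or 3 of either group (up to 0.218).

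NF-kappaB's own inhibitors moved apart. Nfkbia, which encodes the inhibitor that holds NF-kappaB in the cytoplasm, measured 10.62, 10.81 and 10.67 at 4 h, against 10.03, 10.21 and 10.07 at baseline. It rose by 0.60 ± 0.06 (adjusted p 1.55e-07) with no overlap. Nfkbie, a related inhibitor, measured 6.87, 7.11 and 6.80 at 4 h, against 7.92, 7.78 and 7.69 at baseline, and fell by 0.87 ± 0.12 on the log2 scale. Nfkbiz, a nuclear member of the family, was at -0.51 ± 0.16 (adjusted p 0.0441), a call lost with each array of both groups left out in turn (up to 0.207). Of 19 tested subunits and inhibitors 1 rose and 2 fell, so 15.8% were called, beside 7.52% of all tested genes. With the replicate number as a block 1 rose and 7 fell, the added ones being Bcl3, Nfkbid, Rela, Relb and Tnip1. The 18 tested genes of TNF receptors and messenger RNA decay had 3 rises and 1 fall, or 4 and 2 with the block. The 3 rises without the block were all decay genes. Zfp36l1, which binds AU-rich RNA, rose by 0.64 ± 0.08. Zc3h12c, a member of the RNase family of regnase, rose by 0.61 ± 0.11 and Zfp36l2 by 0.31 ± 0.05. The fall was Btg1, at -0.30 ± 0.05 (limma, adjusted p 0.000125). With the block Cd40 was added to the rises and Tnfrsf21 to the falls.

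Of 21 tested Toll-like receptors and adaptors 5 rose and 2 fell. Tlr7 and Tlr8, which sense RNA in endosomes, were among the rises. Tlr7 measured 10.30, 10.41 and 10.25 at 4 h, against 9.04, 9.20 and 9.11 at baseline, and rose by 1.20 ± 0.07 with all 3 probe sets above 1. Tlr8 measured 6.97, 6.70 and 6.67 at 4 h, against 5.32, 5.33 and 5.20 at baseline, and rose by 1.5 ± 0.16. Tlr2, a surface receptor for bacterial lipoproteins, measured 8.41, 8.65 and 8.60 at 4 h, against 8.95, 8.98 and 9.12 at baseline, and fell by 0.46 ± 0.08 on the log2 scale. Members of either location did not move as one, since Tlr3 and Tlr9, also endosomal, were at 0.13 and -0.02 and were not called (adjusted p 0.711 and 0.969). Ly96, which pairs with TLR4, rose by 0.45 ± 0.09, the adaptor Tirap by 0.39 ± 0.11, and the kinase gene Irak2 fell by 0.43 ± 0.12 on the log2 scale. Tlr5 was not above background at baseline, with at least a 1.24-fold higher intensity at 4 h and a call lost without 4 h replicate 1 or baseline replicate 1 or 2 (adjusted p up to 0.159).

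Cytokine receptors rose where they were called, 5 of 25 tested, with 0 falling by limma, 7 at an unadjusted p under 0.05 and a median of 0.00. The 5 were 20.0% of the list, beside 4.49% of all tested genes called higher. Il15ra, the private chain of the interleukin 15 receptor, measured 6.44, 6.81 and 6.90 at 4 h, against 4.05, 5.04 and 4.60 at baseline. The baseline arrays were spread wide, below all arrays at 4 h, and the gene rose by 2.16 ± 0.18. Il6ra rose by 0.70 ± 0.11, Tgfbr1, a receptor kinase for TGF-beta, by 0.58 ± 0.05 and Ifngr1, a chain of the interferon gamma receptor, by 0.32 ± 0.06. With the replicate number as a block 6 rose and 1 fell. Socs2, a brake on cytokine receptors, rose by 1.25 ± 0.32 (adjusted p 0.0123), a call lost without 4 h replicate 2 (0.0881) and without baseline replicate 3 (0.0953).

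The list of receptors for chemoattractants and for lipid and nucleotide messengers had 3 rises and 1 fall of 19 tested, or 4 and 2 with the block. Ptger2, a prostaglandin E2 receptor, measured 8.54, 8.55 and 8.29 at 4 h, against 7.27, 7.42 and 6.79 at baseline, and rose by 1.30 ± 0.12. P2ry14, a receptor for UDP-sugars, rose by 0.55 ± 0.12 and C5ar1, the receptor for complement C5a, by 0.26 ± 0.06. Cx3cr1, the fractalkine receptor, fell by 0.77 ± 0.14 on the log2 scale, with its other probe set at -0.09. Rapgef3 and Rapgef5, exchange factors for Rap proteins of which the first is opened by cyclic AMP, also fell. Rapgef5 measured 8.39, 8.56 and 8.43 at 4 h, against 9.52, 9.42 and 9.53 at baseline, and fell by 1.03 ± 0.06. One of its 3 probe sets was at 0.02. Rapgef3 fell by 1.10 ± 0.16 on the log2 scale.

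Genes of apoptotic cell uptake had 3 rises and 2 falls of 24 tested. Mertk, the receptor kinase with which macrophages recognise dying cells, measured 9.38, 9.31 and 9.38 at 4 h, against 7.35, 7.76 and 7.31 at baseline. It rose by 1.88 ± 0.09, a 3.68-fold higher intensity (adjusted p 9.19e-14). Gas6, its bridging ligand, was at -0.28 ± 0.07 (adjusted p 0.00864), a call lost without 4 h replicate 2 (0.0634) and without baseline replicate 2 (0.0776). With the replicate number as a block and all arrays its adjusted p was 0.000993. The receptor and its ligand thus lay on opposite sides of baseline. C1qa, a complement protein that coats dying cells, was at 0.29 ± 0.08 (adjusted p 0.018), a call lost without 4 h replicate 1 or 2 or baseline replicate 1 or 3 (up to 0.103). Itgav, an integrin chain, was at -0.25 ± 0.07 with its brightest probe set and at 0.15 with the one of largest variance, so its direction was not settled.

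Of 20 tested genes of haemoglobin, haem and iron handling 3 rose and 3 fell. Hp, which encodes haptoglobin, the plasma protein that binds free haemoglobin, measured 6.02, 5.73 and 6.43 at 4 h, against 4.35, 4.06 and 4.30 at baseline, and rose by 1.82 ± 0.19. Cd163, the scavenger receptor for the haptoglobin-haemoglobin complex, measured 5.11, 5.05 and 5.54 at 4 h, against 4.17, 4.39 and 4.11 at baseline, and rose by 1.01 ± 0.15. Hmox1, which breaks haem down, rose by 0.44 ± 0.10, a call lost without 4 h replicate 2 (adjusted p 0.0533) and without baseline replicate 3 (0.0586). With the replicate number as a block and all arrays its adjusted p was 4.39e-09. Slc40a1, the iron exporter ferroportin, measured 7.17, 7.58 and 7.42 at 4 h, against 8.61, 9.0 and 8.73 at baseline, and fell by 1.39 ± 0.14 on the log2 scale, with its other probe set at -1.40. The haem transporters Flvcr1 and Slc48a1 fell by 0.27 ± 0.05 and fell by 0.20 ± 0.06. With the replicate number as a block 5 fell, Cp and Tfrc, the receptor for iron-loaded transferrin, being added.

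Coagulation genes stood on both sides. Thbd, thrombomodulin, an anticoagulant receptor on the cell surface, measured 7.91, 7.93 and 7.95 at 4 h, against 6.24, 5.67 and 5.77 at baseline, and rose by 2.04 ± 0.13. Fgl2, a prothrombinase of macrophages, rose by 1.35 ± 0.20 and F13a1, a subunit of the clot-crosslinking factor XIII, by 1.11 ± 0.13. Plau, the plasminogen activator urokinase, measured 7.74, 7.79 and 7.34 at 4 h, against 9.50, 9.16 and 9.27 at baseline, and fell by 1.68 ± 0.13 on the log2 scale, with its other probe set at -1.67. Of 20 tested complement and coagulation genes 4 rose and Plau alone fell. Among 20 tested matrix genes 4 rose and 1 fell, or 4 and 2 with the block. Mmp19, a matrix metalloproteinase, rose by 1.07 ± 0.15 and Tgfbi, an adhesion protein of the matrix, by 0.39 ± 0.06.

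Enzymes of macrophage polarization had 2 rises and 2 falls of 14 tested. Acod1, whose enzyme makes itaconate, measured 6.69, 6.72 and 7.08 at 4 h, against 8.57, 8.62 and 8.71 at baseline. Its groups were far apart, and it fell by 1.80 ± 0.11 on the log2 scale (SE), with an adjusted p of 1.27e-11. Slc7a2, which takes up arginine, rose by 1.14 ± 0.19 with its brightest probe set, although another of its 4 was at 0.01. Dio2, which activates thyroid hormone, measured 5.59, 5.17 and 5.40 at 4 h, against 7.38, 6.85 and 6.96 at baseline, and fell by 1.68 ± 0.18. Sult1a1, which adds sulfate to phenols, measured 6.92, 7.30 and 7.36 at 4 h, against 4.58, 5.03 and 5.01 at baseline, and rose by 2.32 ± 0.15. Fabp4, a fatty acid carrier, rose by 0.94 ± 0.07 (12.04, 12.08 and 11.90 at 4 h, against 11.24, 11.01 and 10.93 at baseline).

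Called members of the costimulatory and lectin lists changed by less than 1 log2 unit. Of 19 tested genes of MHC class II and costimulation 0 rose and 2 fell, Cd274, the inhibitory ligand also called PD-L1, which fell by 0.78 ± 0.13 on the log2 scale, and Cd83 at -0.68 ± 0.20, a call lost without 4 h replicate 1 or 3 or baseline replicate 2 (adjusted p up to 0.183). With the replicate number as a block 3 rose (Cd40, Cd86 and Icosl) and 2 fell, and Cd83 had an adjusted p of 3.77e-07. Of 21 tested Fc receptors and C-type lectins 2 rose and 2 fell. Clec7a, the receptor for fungal beta-glucan, measured 7.76, 8.13 and 7.74 at 4 h, against 8.53, 8.37 and 8.56 at baseline, and fell by 0.61 ± 0.10. Clec10a, another lectin, was at 0.70, a call lost without replicate 3 of either group (adjusted p up to 0.111). Clec2i, a C-type lectin outside the lists and 1 of the 12 largest falls, was at -1.21. Of 31 tested interferon-stimulated genes 2 rose, led by Samhd1, a nuclease for deoxynucleotides, at 0.68 ± 0.06, and 4 rose with the block. The 6.45% of that list called by limma lay near the 7.52% of all tested genes. The integrin and migration list had 3 falls of 23 tested, or 1 rise and 5 falls with the block. Cd44, a hyaluronan receptor, fell by 0.24 ± 0.05 on the log2 scale, with 1 of its 4 probe sets at 0.28. Coro1a, an actin-binding protein, was at -0.15 ± 0.04, a call lost with every array left out in turn except 4 h replicate 2 (up to 0.185).

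Survival and cell cycle genes moved modestly. Of 21 tested genes of the BCL2 family and cell death 5 rose and 2 fell. Trp53inp1, a stress gene of autophagy, measured 10.34, 10.28 and 10.36 at 4 h, against 9.05, 8.92 and 8.98 at baseline, and rose by 1.34 ± 0.07. Bcl2l1, which protects from apoptosis, rose by 0.60 ± 0.07 and Bmf, which promotes it, by 0.92 ± 0.15, although 1 of the 3 Bmf probe sets was at -0.12. Of 32 DNA replication genes 0 rose and 3 fell, with a median of -0.10, and 5 fell with the replicate number as a block. Mcm2 and Mcm4, subunits of the replicative helicase, fell by 0.37 ± 0.07 and fell by 0.28 ± 0.06 on the log2 scale. Of 29 mitosis genes 0 rose and 3 fell (10.3%), with a median of -0.12, and 7 fell with the block. Cenpa and Cenpe, proteins of the centromere, fell by 0.38 ± 0.07 and fell by 0.36 ± 0.08. Cdkn1b, the CDK inhibitor p27, rose by 0.51 ± 0.09, with its other probe set at 0.01.

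Genes of sterol and fatty acid synthesis depended on whether arrays were compared within replicate numbers. They encode the enzymes that build cholesterol and fatty acids and the sensors that switch this program. Without the block 1 of 27 tested genes rose and Hsd17b7, an enzyme of cholesterol synthesis, was at -0.62 ± 0.18 (adjusted p 0.034), a call lost without 4 h replicate 2 or 3 or baseline replicate 1 or 3 (up to 0.207). With it 1 rose and 17 fell. The 17 were 63.0% of the list, beside 4.83% of all tested genes called lower with the block. Insig1, a sterol sensor of the endoplasmic reticulum, differed by -0.75, -0.61 and -0.81 log2 within replicates 1, 2 and 3. Its mean change of -0.72 had an SE of 0.23 and an adjusted p of 0.0532 without the block, and an SE of 0.10 and an adjusted p of 1.24e-06 with it. Hmgcs1, which makes the precursor of mevalonate, differed by -0.99, -0.94 and -0.46, with an adjusted p of 0.0699 without the block and 0.000336 with it.

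The list was lower within each replicate number while the groups as wholes overlapped. Its median difference was -0.32, -0.23 and -0.30 log2 in replicates 1, 2 and 3. Of the 27 genes 21 were lower within all 3 numbers, as were 19.9% of all tested genes, but among the lower ones only Hsd17b7 and Msmo1 had groups that did not overlap, a separation downward that 10.1% of all tested genes met. Fdft1, squalene synthase, differed by -0.43, -0.59 and -0.44, and Sqle, squalene epoxidase, by -0.36, -0.28 and -0.23. The exception upward was Elovl5, an elongase of polyunsaturated fatty acids, at 0.37, 0.35 and 0.41. The list was set out with earlier results of these data known, and the sterol genes named here other than Hsd17b7 and Elovl5 were chosen after their values were seen.

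**Figure D4:**
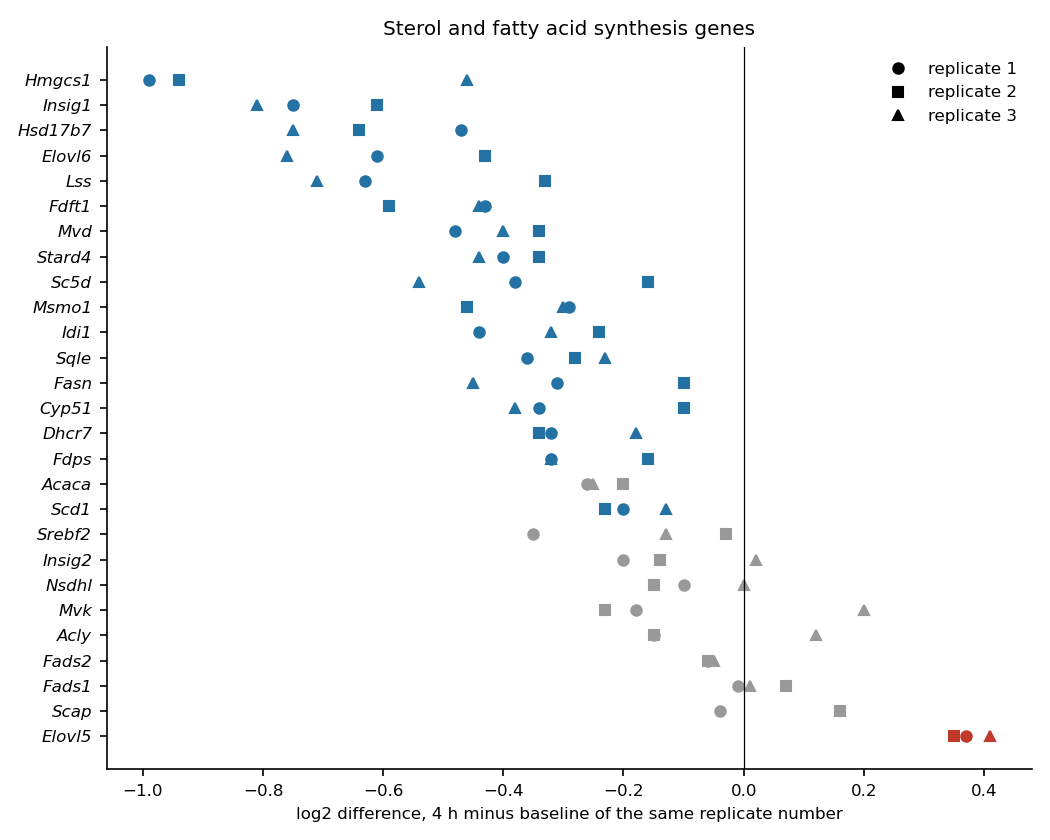
Log2 difference of 4 h minus baseline within replicate 1 (circles), 2 (squares) and 3 (triangles) for the 27 tested genes of sterol and fatty acid synthesis. Blue genes are the 17 called lower with the replicate number as a block, red is Elovl5, called higher, and grey genes were not called. Most points lie left of 0, down to -0.99 for Hmgcs1.

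The Hmgcs1 promoter is shown as the only one of the 23 sterol list genes with an entry that held a sterol regulatory element, TCACNCCAC, in the 250 bases before its start. The motif, searched on both strands, stood in 1.05% of all windows. The window is chr13:119690101-119690350 on the plus strand, and the match in capitals begins 137 bases before the start.
Hmgcs1: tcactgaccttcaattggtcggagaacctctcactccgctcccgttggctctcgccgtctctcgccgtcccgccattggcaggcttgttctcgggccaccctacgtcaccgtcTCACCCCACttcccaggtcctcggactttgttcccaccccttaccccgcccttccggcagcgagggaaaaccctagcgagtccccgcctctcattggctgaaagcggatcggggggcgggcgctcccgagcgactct

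Lists of basic cell programs, and of glycolysis and hypoxia, gave few calls each. The share called was 0.0% for the respiratory chain, 7.69% for lysosome, 11.5% for ribosome biogenesis and translation and 15.4% for glycolysis and hypoxia. Over all tested genes it was 7.52%. With so few calls per list, differences between these shares are not read as a result. Of 24 tested respiratory chain genes 0 were called by limma, 3 had an unadjusted p under 0.05, and the brightest, Cox5a, was at 0.05 ± 0.04 (adjusted p 0.594). With the block 2 fell, Atp5o and Cycs, beside 4.83% of all tested genes called lower that way. Of 26 genes of ribosome biogenesis and translation 3 fell, led in size by Eif4e, which binds the cap of messenger RNA, at -0.48 ± 0.13. Its call was lost without 4 h replicate 1 or 2 or baseline replicate 1 (up to 0.171), while Nop58, a protein of ribosomal RNA modification, fell by 0.35 ± 0.06 on the log2 scale. Of 26 lysosome genes 1 rose, Npc1, which releases cholesterol from lysosomes (0.47 ± 0.06), and 1 fell, or 3 and 2 with the block. Of 26 genes of glycolysis and hypoxia 3 rose and 1 fell, none by more than 0.75 log2.

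Markers of other cells gave few calls, and their levels differed between lists. Of 13 tested neutrophil, 7 B cell and 6 stromal markers 0 were called by limma, and 1, 2 and 0 had an unadjusted p under 0.05. Blnk of the B cell list was called lower with the block. The neutrophil, B cell and stromal markers had summed log2 levels of 9.94 to 10.38, 10.94 to 11.09 and 7.01 to 7.28 at 4 h. At baseline these were 9.86 to 10.50, 11.07 to 11.37 and 6.97 to 7.12. In both groups 3 of 13, 4 of 7 and 4 of 6 were below background. Blnk alone averaged 10.91 at 4 h and 11.16 at baseline, close to the B cell sums. Cd79a averaged 3.66 and 3.71, and Cd79b 5.65 and 5.51. The 9 erythroid and megakaryocyte markers summed to 12.33 to 12.52 at 4 h and 12.35 to 12.75 at baseline, with 3 below background at 4 h and 4 at baseline, and Hba-a1 was the 1 called, higher at 4 h. Of 9 T and NK cell markers Cd28 fell by 0.56 ± 0.07 on the log2 scale, at 9.40, 9.42 and 9.50 at 4 h and 9.99, 9.82 and 10.20 at baseline. In both groups 6 of the 9 were below background, and Cd3e, a defining T cell gene, was at 4.68 to 5.01 at 4 h and 4.57 to 5.03 at baseline. The summed T and NK cell level was 9.63 to 9.73 at 4 h and 10.01 to 10.34 at baseline. Cd83 of the dendritic cell list and Kit of the mast cell list fell, with 3 of 7 and 4 of 5 markers of those lists below background in both groups, and summed levels of 8.11 to 8.54 and 6.40 to 6.82 at 4 h, against 8.68 to 9.08 and 6.88 to 6.97 at baseline. The call of Kit (-0.53 ± 0.16) was lost with every array left out in turn except 4 h replicate 3 (up to 0.26). Hba-a1, a haemoglobin chain, was at 3.97, 4.20 and 3.95 at 4 h, against 3.44, 3.54 and 3.59 at baseline, near background throughout. The part of other cells in the gene calls was not tested.

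The neighbouring times show where 4 h lies in the response. The comparisons share the 4 h arrays, so their values are given side by side and are not independent. Against 2 h, 251 genes differed at 4 h (1.9%), 153 higher (1.16%) and 98 lower (0.743%). Zbtb16 was 2.17 ± 0.26 higher at 4 h than at 2 h, Lifr 1.41 ± 0.17, Fmnl2, a formin that builds actin filaments, 1.35 ± 0.12 and Fkbp5 1.23 ± 0.07. Acod1 was lower than at 2 h by -1.39 ± 0.11, Dio2 by -1.18 ± 0.18 and Slc40a1 by -0.98 ± 0.14. Dusp1, Per1, Ddit4 and Tnf differed from 2 h by 0.04, -0.11, 0.36 and -0.05, with adjusted p values of 0.932, 0.756, 0.498 and 0.935. A p that misses the threshold does not show that these levels were equal.

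Against 4 h, 551 genes differed at 10 h (4.18%), 310 higher (2.35%) and 241 lower (1.83%). F13a1, Sult1a1 and Hp, already higher than baseline at 4 h, were 1.91 ± 0.13, 1.81 ± 0.15 and 1.75 ± 0.19 higher again at 10 h, and Cd163 1.08 ± 0.15. B3gnt5, a glycosyltransferase that starts lacto-series glycolipids, had risen by 2.03 ± 0.22 at 4 h and was at -1.34 ± 0.22 at 10 h against 4 h. Klf4 was at -0.91 ± 0.09 and Thbd at -0.69 ± 0.13 in that step. Several genes were lower at 4 h than at baseline and higher at 10 h than at 4 h. Among them Nfkbie was at 1.08 ± 0.12, Tnf at 0.97 ± 0.10, Tlr2 at 0.88 ± 0.08, Ets2 at 0.87 ± 0.08, Ier3 at 0.81 ± 0.10 and Slc40a1 at 0.76 ± 0.14 for 10 h against 4 h. Dio2 and Clec7a were lower again, at -1.23 ± 0.18 and -1.01 ± 0.10. Il1rn and Cry1, at -0.10 ± 0.17 and -0.03 ± 0.08 at 4 h against baseline, differed by -1.41 ± 0.17 and 1.29 ± 0.08 at 10 h against 4 h.

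**Figure D5:**
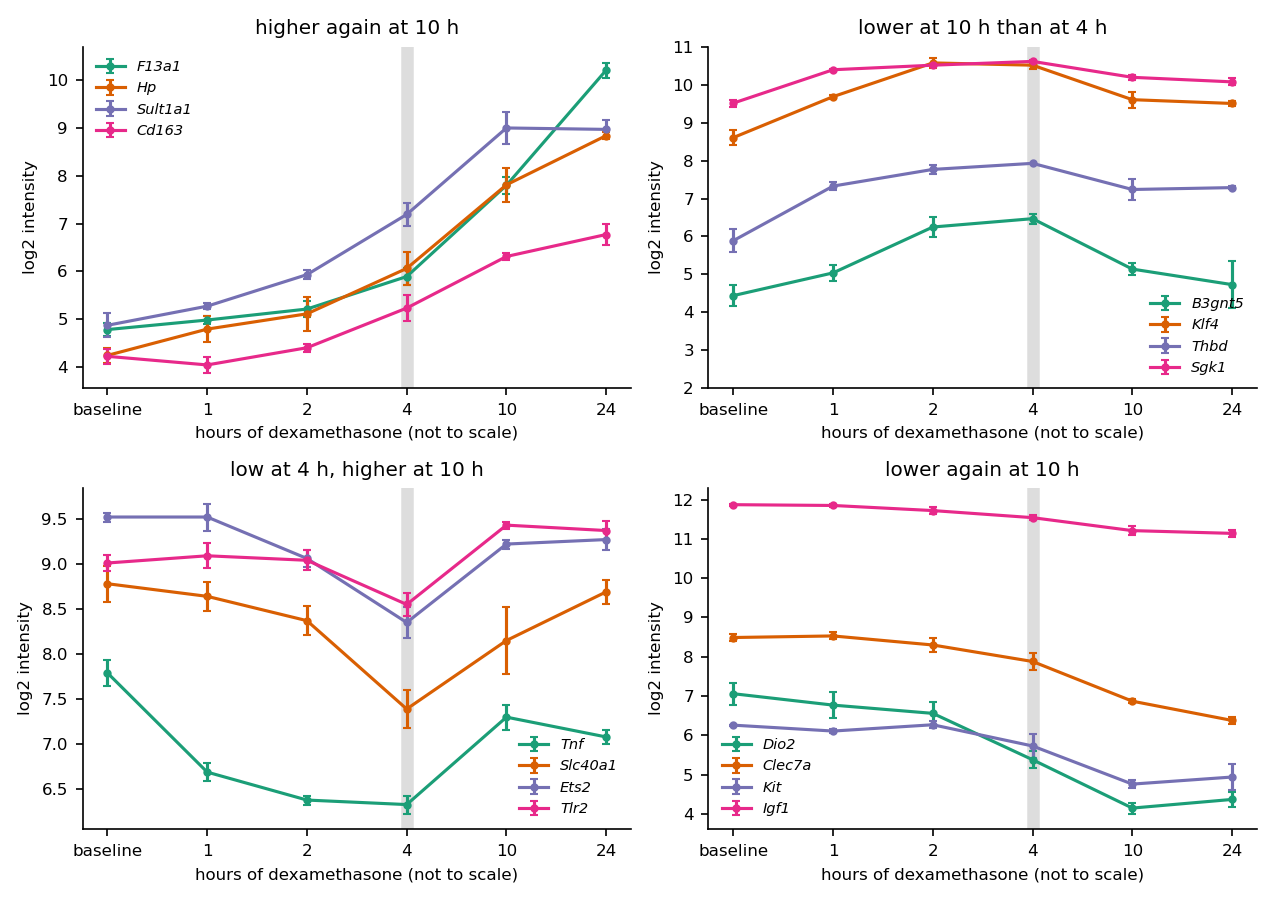
Mean log2 intensity with SD (n = 3 arrays per time) of 16 genes at baseline and after 1, 2, 4, 10 and 24 h, with 4 h shaded and the time axis not to scale. The panels group genes by their direction at 10 h against 4 h. F13a1, Hp, Sult1a1 and Cd163 climb on, B3gnt5, Klf4, Thbd and Sgk1 come down from 4 h, Tnf, Slc40a1, Ets2 and Tlr2 have their lowest mean at 4 h, and Dio2, Clec7a, Kit and Igf1 are lower at 10 h than at 4 h.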

How the data were processed

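Affymetrix arrays measured RNA of 18 samples, 3 per group. For each probe set and array the authors deposited an intensity on a linear scale. The submitters' processing notes name RMA and affy and give no versions. RMA equalises distributions between arrays and so removes shifts common to most genes. Columns were mapped through their titles, and intensities were log2-transformed. In baseline replicate 1, 211 consecutive probe sets fell along the table by a constant log2 step (mean -0.000106). They were left out on all arrays.

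Of 45141 probe sets, 28898 had 1 gene symbol, 551 several and 15588 none. A gene was represented by its brightest probe set and tested where at least 3 arrays reached their 40th percentile. This kept 13193 of 17020 named genes. limma 3.58.1 (R 4.3.3) fitted all 18 arrays with an intensity trend, moderated tests and Benjamini-Hochberg adjustment over all tested genes. A call is an adjusted p under 0.05, and the value after ± is a standard error unless SD is named. The background level, 3.86 log2, is the 95th percentile of 43 control probe sets, averaged over arrays. On single arrays it was 3.90 to 4.19 at 4 h and 3.62 to 3.85 at baseline. A gene whose group mean lay below 3.86 has only a bound on its fold, computed against each array's own level or the probe's, whichever was higher. The number of arrays limits the precision. On simulated data for 4 h against baseline (13193 genes, 50 changed by each size) the test recovered 12% of changes of 0.25 log2, 72% of 0.5, 98% of 1 and 100% of 2. The simulated noise was independent between arrays, with no part shared by replicate number. It gave 146 calls, against 992 in the data, so these rates need not hold for the data.

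The series calls the arrays biological replicates. P-values measure only the spread between these arrays. Deviations from the group means at 4 h and baseline correlated at 0.24, 0.138 and 0.182 for the same replicate number and at -0.20 to 0.02 for other numbers, so the numbers were taken to pair the samples. The pairing comes from this check and not from the labels. The blocked value stands beside a result where it changed a count by over 1.5 times, and beside some single genes. Calls said to be lost with 1 array left out refer to the fit without the block.

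Named genes were the 12 largest rises and falls with groups that did not overlap, up to 4 called members of each list, the brightest member of a list with none, 5 treatment check genes and the 6 largest changes each way against 2 h and 10 h. Further list members named in the text fall outside this rule and were chosen after their values were seen. The members and lists were chosen with earlier results of these data known. Alternatives are given in the closing section.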

Additional observations from a re-analysis of the deposited data

Results flagged for a closer look

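Probe sets outside the genes of the comparison were called as well. Among probe sets that passed the filter but had no gene symbol or several, 381 were called at 4 h against baseline, 228 higher and 153 lower. Those without a symbol gave 354 calls of 9486 tested (3.73%) and those with several gave 27 of 452 (5.97%). In the same fit 1259 of 21488 probe sets with 1 symbol were called (5.86%). The share without a symbol was thus lower, and that with several symbols was near it. The largest rise was an unnamed probe set at 6.99, 7.26 and 7.21 log2 intensity at 4 h and 3.24, 3.15 and 3.20 at baseline, a change of 3.95 ± 0.15 (limma, adjusted p 1.14e-15). The largest fall was a probe set at 6.58, 6.93 and 6.70 at 4 h and at 8.21, 8.23 and 8.08 at baseline, with a change of -1.44 ± 0.12. Which genes these probe sets measure was not analysed here.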

How the results depend on the processing

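Limits first: only 3 arrays stand behind each group, and probes near background bound a fold only. Changes near 0.25 log2 were rarely recovered in simulated data, whose noise had no part shared by replicate number. The count of 992 genes at 4 h against baseline stayed within 1.5 times under every alternative run except a required change of at least 1 log2 unit, which left 98, and the replicate block on median-centred arrays, which gave 1935. It ranged from 708 (without 4 h replicate 2) to 920 (without baseline replicate 1) with 1 array left out. The replicate block gave 1397, of which 991 were shared with the 992. Of 148 named genes called, 84 kept call and direction under every alternative but the size rule, and 41 lost the call with at least 1 array left out. Those 41 refer to the fit without the block. With the block on all arrays 0 named genes lost the call, and without replicate 1, 2 or 3 of every group 9, 22 and 18 did. In a separate count over the 148, 84 genes had several probe sets and 64 of these had all of them on one side.

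Against 2 h the count of 251 was 9 with the size rule, 500 with the replicate block, 142 with the probe set of largest variance, 157 with the mean of probe sets, 132 with a background of 16 subtracted, 129 without the intensity trend and 137 to 168 with 1 array left out (lowest without 4 h replicate 2). For 10 h against 4 h the count of 551 was 25, 945 and, with only those groups fitted, 344; it was 356 with the probe set of largest variance, 321 without the trend, and 316 (without 4 h replicate 1) to 518 with 1 array left out. In these steps same-numbered arrays correlated at 0.0234 to 0.181, not all over 0.1, so the block is given only here.

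The 1 sterol and fatty acid synthesis gene called lower became 0 with the size rule, the mean of probe sets, stepped values kept, background subtracted or no trend, 2 with only both groups fitted, no filter or quantile normalization, 5 on median-centred arrays and 0 to 7 with 1 array left out. Replicate-block alternatives, chosen after seeing the data, gave 17, 17 with only both groups, 19 median-centred and 14, 15 and 11 without replicate 1, 2 or 3. Unnamed probe sets called numbered 584 with the block and 253 to 395 with 1 array left out (lowest without 4 h replicate 2).

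Directions turned for few genes. With 1 array left out Ifit3, at 0.00, ran from -0.33 to 0.20 and Cry1 from -0.08 to 0.03. Ifit3 was at 0.07 without 4 h replicate 3, 0.13 and 0.20 without baseline replicate 2 and 3, 0.02 with background subtracted, and 0.11 and 0.27 with the block without replicate 2 and 3. Cry1 was at 0.03 without baseline replicate 1 and 0.01 with the block without replicate 1. Il1rn was at 0.04 with the mean of probe sets and 0.02 with the block without replicate 3. Cox5a was at -0.01 with the largest variance or mean probe sets and -0.04 median-centred with or without the block. With the probe set of largest variance Itgav was at 0.15 and Gch1 at 0.12. The cause was not tested.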

Other observations

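Further called genes outside the lists, chosen after their values were seen, fell into other functions. Klhl6, known from B cells, measured 10.01, 9.98 and 9.98 log2 intensity at 4 h, against 7.82, 7.75 and 7.77 at baseline, and rose by 2.21 ± 0.08 (limma, adjusted p 3.44e-16). Cytip, a scaffold that releases leukocytes from adhesion, rose by 2.09 ± 0.09, Jag1, a Notch ligand, by 1.98 ± 0.20 and Jdp2, a repressor that pairs with AP-1 proteins, by 1.96 ± 0.07. Pex13, a peroxisomal import protein, measured 10.41, 10.48 and 10.49 at 4 h, against 8.48, 8.60 and 8.48 at baseline, and rose by 1.94 ± 0.06. Ms4a6b, Ms4a6c and Ms4a6d, of a family of membrane proteins, rose by 1.47 ± 0.13, 1.13 ± 0.11 and 0.67 ± 0.06, and Ms4a4b had at least a 2.5-fold higher intensity at 4 h. Wee1, a kinase that holds back mitosis, rose by 1.25 ± 0.09 and Gpr65, a receptor that senses acid, by 1.27 ± 0.08.

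Among receptors outside the lists, Gpr84, which binds medium-chain fatty acids, measured 6.39, 6.67 and 6.50 at 4 h, against 7.41, 7.58 and 7.32 at baseline, and fell by 0.92 ± 0.10 on the log2 scale. The sphingosine phosphate receptor genes S1pr1 and S1pr2 fell by 0.92 ± 0.21 and fell by 0.69 ± 0.12, the leukotriene receptor gene Cysltr1 fell by 0.68 ± 0.10 and Ednrb, an endothelin receptor, fell by 0.84 ± 0.15. Ern1, a sensor of endoplasmic reticulum stress, fell by 0.85 ± 0.12, and Mid1ip1, an activator of fatty acid synthesis, measured 9.05, 8.87 and 9.17 at 4 h, against 10.07, 9.86 and 10.16 at baseline, and fell by 1.00 ± 0.09.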
